A study of Homo sapiens with 18 samples.

Results

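This report describes 10 genes of semaphorin signalling in pancreatic cancer cells after knockdown of OFD1, a centrosomal and centriolar satellite protein. The genes are the ligands SEMA4B, SEMA3C, SEMA3A and SEMA4C, the coreceptors NRP1 and NRP2, and the receptors PLXNA1, PLXNB1, PLXNB2 and PLXND1. They are 10 of the 26668 gene symbols in the expression table, and all 10 were found by symbol. The set was chosen on measured values, because SEMA4B, SEMA3C and NRP1 were among the strongest falls after knockdown. Their changes after knockdown are therefore given as a description, with no test. Where members are counted against a threshold, the count is no test of them. RNA-seq was available for 18 libraries from 3 established human pancreatic cancer lines, PANC-1, MIA PaCa-2 and PaTu 8988T. Each line had 3 control libraries, labelled wild type and untreated, and 3 knockdown libraries, labelled shOFD1 and given doxycycline for 72 h to switch on a short hairpin RNA against OFD1. All cells were kept in the same serum-containing medium. The titles call the controls shControl, whereas the study's methods describe cells that carry the inducible OFD1 hairpin and received DMSO, so whether the control cells held the OFD1 hairpin was not settled. Every knockdown culture and no labelled control culture received doxycycline, so effects of the drug and of the knockdown cannot be told apart. For PaTu 8988T, the titles of all 6 libraries name the line, but the source field of replicates 2 and 3 names 8989T and 8990T. The titles were followed. Nothing in the labels says whether replicates were separate cultures, so the p-values measure the spread between these libraries, which may be technical.

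Semaphorins are secreted or membrane-bound guidance proteins first known for steering axons, and they also act on the adhesion and migration of epithelial, endothelial and tumour cells. Class 3 semaphorins such as SEMA3A and SEMA3C are secreted and usually bind a neuropilin, which has no signalling domain of its own and passes the signal through a plexin. Class 4 semaphorins such as SEMA4B and SEMA4C are membrane proteins, and SEMA4C is a ligand of PLXNB2. Plexins carry an intracellular GTPase-activating domain that lowers the activity of small GTPases of the Ras and Rap families. Neuropilins also bind forms of VEGFA.

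By the GENCODE v29 annotation of GRCh38, SEMA4B lies on the plus strand of chromosome 15, from 90160604 to 90229679. SEMA3C lies on the minus strand of chromosome 7, from 80742538 to 80922359, and SEMA3A lies on the same strand of chromosome 7, from 83955777 to 84492724. SEMA4C is on the minus strand of chromosome 2, from 96859716 to 96870757, and NRP2 is on the plus strand of chromosome 2, from 205681990 to 205798133. NRP1 is on the minus strand of chromosome 10, from 33177492 to 33336262. Of the 4 plexins, 3 share chromosome 3, namely PLXNA1 from 126988594 to 127037392 on the plus strand, PLXNB1 from 48403854 to 48430051 on the minus strand and PLXND1 from 129555175 to 129606818 on the minus strand. PLXNB2 is on the minus strand of chromosome 22, from 50274979 to 50307627.

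Promoter windows of 300 bases, from 250 bases before to 50 bases after an annotated start, were taken from RefSeq (GRCh38.p14) and were found for 8 of the 10 genes. NRP1 and SEMA3A were the genes without one. The 8 genes had 12 windows, because SEMA4B has 3 and SEMA3C and PLXNB1 have 2 each. The windows of SEMA4B, SEMA3C and NRP2 are shown because these 3 genes had the largest falls among the members with a window. For SEMA4B and SEMA3C the window with the most CG dinucleotides is shown, and which start these cells use was not measured. The SEMA4B window is chr15:90201080-90201379 on the plus strand, the SEMA3C window is chr7:80919002-80919301 on the minus strand, and the NRP2 window is chr2:205682251-205682550 on the plus strand. Capitals mark the GC box GGGCGG on either strand.
SEMA4B: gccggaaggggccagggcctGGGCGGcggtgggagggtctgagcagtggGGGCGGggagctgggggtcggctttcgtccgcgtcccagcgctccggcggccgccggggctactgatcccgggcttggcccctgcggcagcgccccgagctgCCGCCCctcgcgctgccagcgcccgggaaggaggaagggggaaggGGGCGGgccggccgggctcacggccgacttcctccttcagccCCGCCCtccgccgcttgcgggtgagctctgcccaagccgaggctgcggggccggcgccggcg
SEMA3C: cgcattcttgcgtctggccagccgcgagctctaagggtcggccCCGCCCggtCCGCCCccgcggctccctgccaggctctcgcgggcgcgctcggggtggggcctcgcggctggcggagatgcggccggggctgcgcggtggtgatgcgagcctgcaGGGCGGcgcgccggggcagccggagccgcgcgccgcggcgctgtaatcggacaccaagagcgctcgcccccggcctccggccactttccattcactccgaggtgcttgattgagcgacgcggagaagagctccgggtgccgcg
NRP2: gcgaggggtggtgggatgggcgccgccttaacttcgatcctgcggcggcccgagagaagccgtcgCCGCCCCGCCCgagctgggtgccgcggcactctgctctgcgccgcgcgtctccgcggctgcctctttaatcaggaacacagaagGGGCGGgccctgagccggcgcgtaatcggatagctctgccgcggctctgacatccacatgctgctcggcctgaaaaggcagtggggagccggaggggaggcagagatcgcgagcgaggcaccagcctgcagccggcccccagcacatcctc
These 3 windows held 37, 46 and 33 CG dinucleotides, against a median of 14 over all 35116 windows. The SEMA4B and SEMA3C windows were picked for their CG count, so nothing is read from this comparison for them. The GC box was present in 10 of the 12 member windows, 5 times in the SEMA4B window shown and 3 times in each of those of SEMA3C and NRP2, and 45.0% of all windows held it. The other SEMA3C window, at 80922340 to 80922639, held 2 CG dinucleotides and no GC box. The SEMA4B windows not shown held 32 and 6 CG dinucleotides, with 3 GC boxes in the former and none in the latter. Of the other motifs searched on both strands, CCAAT was in 3 member windows, against 34.6% of all windows, and TTTGAA, a cell cycle gene element, was in 2, against 15.2%. The core TGACGT of cyclic AMP response elements was in 1 member window, that of SEMA4C, against 8.0% of all windows. None of the 12 held TATAAA (11.5% of all windows), CACGTG (7.3%) or the AP-1 motif TGANTCA (7.7%), with the letters counted only where they match exactly. Motifs can share letters at their ends, and each match was counted on its own.

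Values are FPKM, a read count divided by gene length and library total. Every value above 0 was a whole number of reads, and the libraries held 32486479 to 39797537 counted reads. OFD1 itself fell in PANC-1 from 5.43 ± 0.28 to 2.55 ± 0.26 FPKM, in MIA PaCa-2 from 2.85 ± 0.51 to 1.82 ± 0.13 and in PaTu 8988T from 2.06 ± 0.11 to 0.911 ± 0.068 (mean ± SD, n = 3 libraries). The controls and the knockdown libraries of OFD1 did not overlap in any line, and limma's adjusted p was 2.7e-06, 0.023 and 5.5e-05. MIA PaCa-2 control replicate 2 stood apart from controls 1 and 3, with an SD of the log2 difference over genes of 0.52, against 0.10 to 0.27 for the same measure in the other 17 libraries. The values of 0.27 were those of MIA PaCa-2 controls 1 and 3, each compared with a mean that included control 2. The next highest was 0.16, in PaTu 8988T knockdown replicate 2. Changes of the members tested in MIA PaCa-2 are therefore given with and without MIA PaCa-2 control replicate 2. OFD1 in that line was at -0.61 (SE 0.16) with that library and -0.76 (SE 0.090) without it. The summed level of the 4 mesenchymal markers, nearly all of it VIM, was 1410 to 1427 FPKM in PANC-1 controls and 802 to 823 after knockdown. It was 3480 to 3589 and 4785 to 4975 in MIA PaCa-2, and 780 to 813 and 592 to 624 in PaTu 8988T. This sum does not stand for each marker, since in PANC-1 the log2 fold change was below 0 for 3 of the 4, and 1 rose more than 2-fold. The sum of the 6 epithelial markers was 935 to 956 and 921 to 942 FPKM in PANC-1, 1616 to 2197 and 1359 to 1392 in MIA PaCa-2, and 1045 to 1069 and 838 to 909 in PaTu 8988T. Keratins KRT8 and KRT18, which mark epithelial cells, were above 300 FPKM in all 3 lines. CDH1, in contrast, was at most 0.276 FPKM on average in the MIA PaCa-2 and PaTu 8988T groups. Only 3 of the 6 epithelial markers exceeded 1 FPKM in each group of these 2 lines, against all 6 in PANC-1. KRT19 was at 0 in every PaTu 8988T knockdown library. The epithelial sum therefore does not stand for each marker in MIA PaCa-2 and PaTu 8988T. All 5 acinar and islet markers had a mean below 1 FPKM in every group, with CPA1, CELA3A and INS at 0 in all 18 libraries, and the summed level of the 3 endothelial markers was 0.022 to 0.233 FPKM. Of the 4 fibroblast markers, DCN and PDGFRB had means below 0.1 FPKM in every group, while COL1A1 was at 26.1 FPKM in PANC-1 controls and COL1A2 at 162 FPKM in MIA PaCa-2 controls. CD3E was at 0 in all libraries, and of the immune markers CD68 fell in PANC-1 from 34.6 to 18.1 FPKM and went from 52.5 to 69.3 FPKM in MIA PaCa-2. In both MIA PaCa-2 groups 3 of the 4 immune markers reached 1 FPKM, against 1 in each group of PANC-1 and PaTu 8988T. Their sum was 52.1 to 72.1 FPKM in MIA PaCa-2 controls and 77.6 to 80.6 FPKM after knockdown. The part of these markers in the results was not tested. In whole cultures, fewer cells that express a gene and less RNA per cell cannot be told apart.

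SEMA4B had the highest level of the members in PANC-1 controls and one of the largest falls. It measured 215, 223 and 215 FPKM in the PANC-1 controls and 31.6, 32.4 and 32.3 FPKM after knockdown, on 4201 to 33688 reads a library. All 3 knockdown libraries were far below all controls, and the level fell to 0.148 of control, a log2 fold change of -2.76 (SE 0.026). In PaTu 8988T it measured 36.2, 39.7 and 38.9 FPKM in controls and 10.4, 11.2 and 10.6 after knockdown. Again the groups did not overlap, and the log2 fold change was -1.82 (SE 0.050). These values rank SEMA4B sixth of 10902 genes in PANC-1 and second of 10698 in PaTu 8988T, counted from the largest fall. MIA PaCa-2 differed. Its controls were at 4.76, 7.002 and 5.24 FPKM and its knockdown libraries at 6.77, 6.35 and 7.58. The groups overlapped through control replicate 2, and the log2 fold change of 0.30 (SE 0.16) became 0.46 (SE 0.082) without that library.

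**Figure D1:**
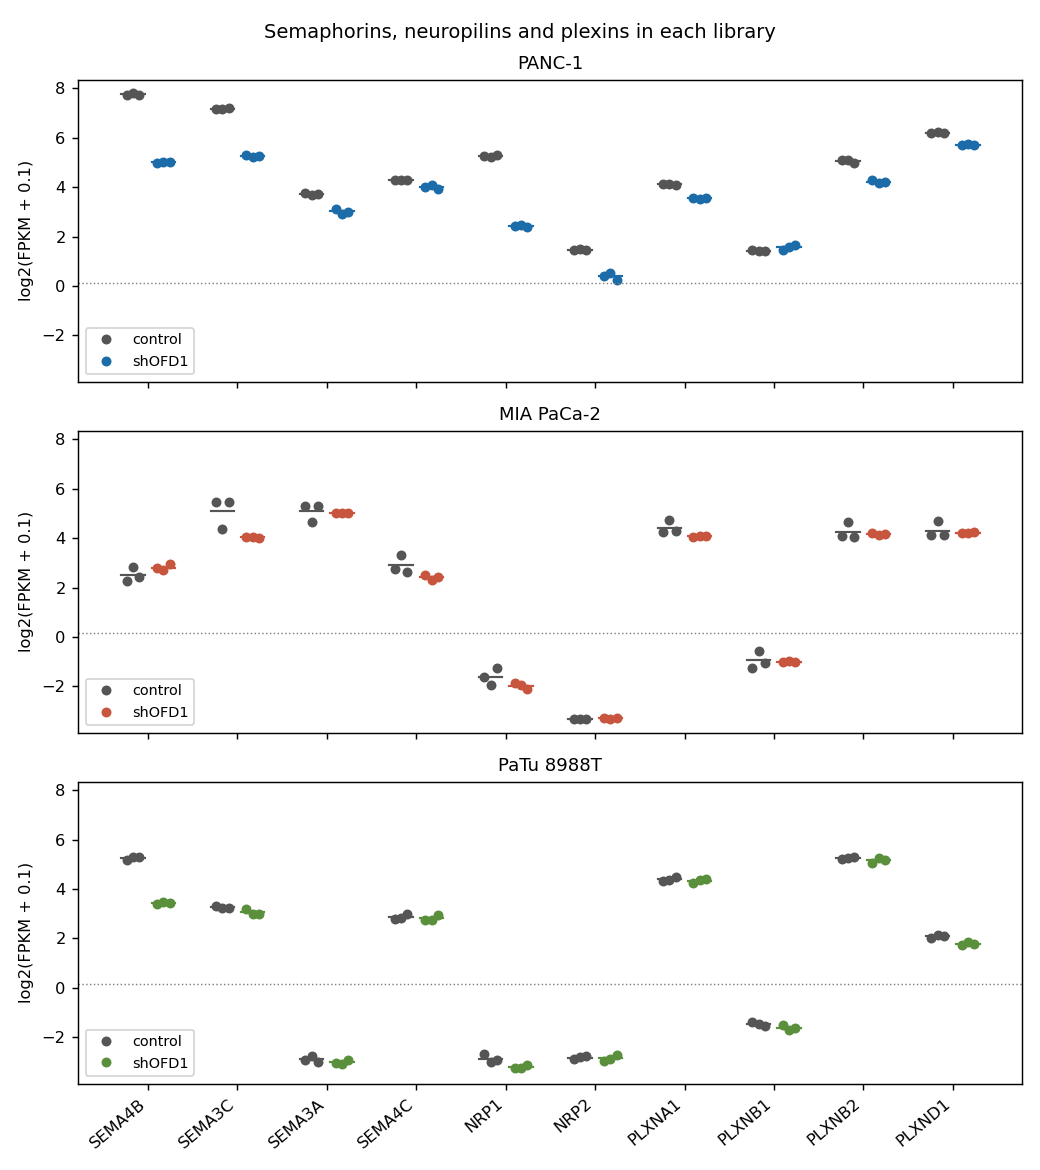
Level of each member in each library, as log2(FPKM + 0.1), in PANC-1 (top), MIA PaCa-2 (middle) and PaTu 8988T (bottom). Grey points are the 3 controls and coloured points the 3 knockdown libraries, short bars are group means, and the dotted line marks 1 FPKM. SEMA4B, SEMA3C, NRP1 and NRP2 fell by more than 2-fold in PANC-1. NRP1, NRP2 and PLXNB1 lie under the dotted line in the other cell lines, as does SEMA3A in PaTu 8988T.

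SEMA3C, a secreted ligand that can act through either neuropilin with PLXNA or PLXND1 receptors, was lower in PANC-1 and MIA PaCa-2. It measured 145, 142 and 149 FPKM in PANC-1 controls and 39.2, 37.7 and 38.7 after knockdown, a log2 fold change of -1.91 (SE 0.029). In MIA PaCa-2 the controls were at 43.6, 20.4 and 44.0 FPKM and the knockdown libraries at 16.6, 16.4 and 16.2. Control replicate 2 lay close to the knockdown libraries but above all of them. The log2 fold change was -1.05 (SE 0.29), and -1.41 (SE 0.031) without that control. Without control 1 or control 3 it was -0.87 or -0.86, which is under the 2-fold limit. In PaTu 8988T the values were 9.80, 9.32 and 9.29 FPKM against 8.99, 7.95 and 7.93, so the groups were separate by a small margin and the log2 fold change was -0.19 (SE 0.062). SEMA4B and SEMA3C thus differed in which line showed a small change, MIA PaCa-2 for the former and PaTu 8988T for the latter.

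SEMA3A, the collapsin first known for repelling axons, was at 13.7, 12.7 and 13.2 FPKM in PANC-1 controls and at 8.66, 7.46 and 7.91 after knockdown. The groups did not overlap, with a log2 fold change of -0.71 (SE 0.062). In MIA PaCa-2 it was at 39.7, 25.1 and 39.5 FPKM in controls and 32.1, 32.1 and 32.3 after knockdown. The knockdown libraries lay between control replicate 2 and controls 1 and 3, and the log2 fold change of -0.08 (SE 0.18) became -0.30 (SE 0.026) without replicate 2. In PaTu 8988T SEMA3A rested on 6 to 16 reads a library, a mean of 0.034 FPKM in controls and 0.024 after knockdown, too few to show a change. SEMA4C, the PLXNB2 ligand, had small differences in every line. It went from 19.4 ± 0.1 to 16.1 ± 0.8 FPKM in PANC-1 (log2 fold change -0.27, SE 0.045), from 7.50 ± 1.95 to 5.23 ± 0.33 in MIA PaCa-2 (-0.48, SE 0.18, and -0.28, SE 0.068, without control replicate 2) and from 7.19 ± 0.54 to 6.95 ± 0.55 in PaTu 8988T (-0.05, SE 0.075), each as mean ± SD of 3 libraries. In PaTu 8988T its groups overlapped.

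NRP1, the coreceptor of SEMA3A and of VEGFA, was expressed above 1 FPKM only in PANC-1 among the 3 lines. There it measured 38.1, 37.3 and 39.6 FPKM in controls and 5.23, 5.44 and 5.18 after knockdown, on 1033 to 8392 reads. The groups were widely separate, and the level fell to 0.140 of control, a log2 fold change of -2.84 (SE 0.044), the fifth largest fall of 10902 genes. In MIA PaCa-2 it had 30 to 75 reads a library, at 0.223, 0.161 and 0.315 FPKM in controls and 0.174, 0.156 and 0.129 after knockdown. In PaTu 8988T it had 1 to 13 reads, and the 3 knockdown libraries, at 0.0045, 0.0047 and 0.0136 FPKM, were below the controls at 0.058, 0.023 and 0.031. These low values were not fitted, because genes with a mean under 1 FPKM over the libraries of a line were left out.

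NRP2, the preferred coreceptor of other class 3 semaphorins such as SEMA3F, was also above 1 FPKM only in PANC-1. It measured 2.62, 2.72 and 2.66 FPKM in controls and 1.21, 1.34 and 1.08 after knockdown. The groups did not overlap, and the log2 fold change was -1.08 (SE 0.11), close to the 2-fold limit. NRP1 was 14.4 ± 0.6 times as abundant per length as NRP2 in PANC-1 controls and 4.39 ± 0.37 times after knockdown. In MIA PaCa-2, NRP2 was at 0 in all 3 controls, with at most 1 read in a knockdown library, and in PaTu 8988T it had 17 to 30 reads a library.

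No receptor among the members measured above 1 FPKM differed by 2-fold or more in any line. PLXNB2, the receptor of SEMA4C, was at 34.0, 34.6 and 31.6 FPKM in PANC-1 controls and 19.5, 18.1 and 18.4 after knockdown, with no overlap and a log2 fold change of -0.84 (SE 0.046). PLXNA1, a receptor that pairs with NRP1 for SEMA3A, was at 17.3, 17.4 and 16.8 FPKM against 11.9, 11.3 and 11.7 in PANC-1. PLXND1, a receptor of SEMA3E and SEMA3C, was at 74.2, 74.5 and 73.7 FPKM against 52.3, 53.1 and 52.4. Neither overlapped, and their log2 fold changes were -0.56 (SE 0.042) and -0.49 (SE 0.025). PLXNB1, the receptor of SEMA4D, was the exception in PANC-1, at 2.63, 2.58 and 2.57 FPKM in controls and 2.61, 2.87 and 3.10 after knockdown. Its groups overlapped and its log2 fold change was 0.13 (SE 0.090).

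In MIA PaCa-2 the size or sign of the change of the member plexins above 1 FPKM depended on control replicate 2. With all controls the groups of PLXNA1 did not overlap, whereas those of PLXNB2 and PLXND1 did. PLXNA1 was at 18.9, 26.6 and 19.2 FPKM in controls and 16.6, 16.9 and 16.8 after knockdown, and its log2 fold change of -0.34 (SE 0.14) became -0.18 (SE 0.033) without that control. PLXNB2 was at 16.7, 25.1 and 16.6 against 18.5, 17.5 and 17.8 FPKM, and PLXND1 at 17.1, 25.5 and 17.5 against 18.4, 18.4 and 19.0. With all controls, their log2 fold changes were -0.09 (SE 0.17) and -0.08 (SE 0.16). Without replicate 2 the sign turned, to 0.11 (SE 0.037) and 0.10 (SE 0.035). In PaTu 8988T, PLXND1 was at 3.99, 4.32 and 4.14 FPKM in controls and 3.22, 3.53 and 3.28 after knockdown, separate groups with a log2 fold change of -0.31 (SE 0.069). PLXNA1 (-0.07, SE 0.057) and PLXNB2 (-0.10, SE 0.052) had overlapping groups there. PLXNB1 was under 1 FPKM in both lines, at 0.428 ± 0.132 and 0.400 ± 0.010 FPKM in MIA PaCa-2 and 0.261 ± 0.021 and 0.225 ± 0.023 in PaTu 8988T, controls first.

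**Figure D2:**
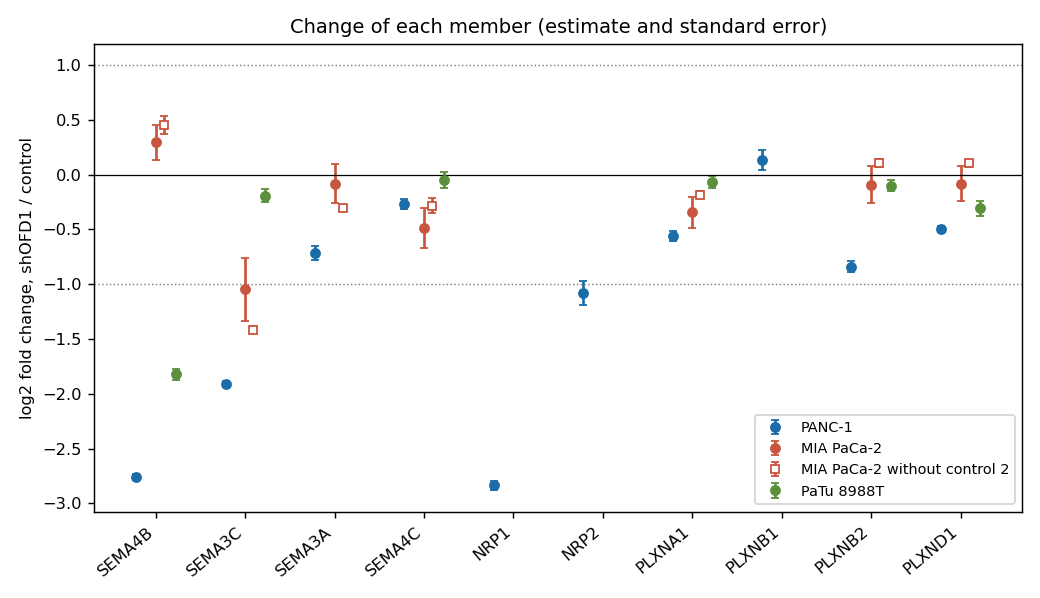
Log2 fold change of each member (shOFD1 over control) in each line, with its standard error, for the members whose mean reached 1 FPKM there. Open squares give MIA PaCa-2 without control replicate 2, and dotted lines mark a 2-fold change. SEMA4B was near -2.76 in PANC-1 and -1.82 in PaTu 8988T but above 0 in MIA PaCa-2, whereas SEMA3C was lower in PANC-1 and MIA PaCa-2 and near 0 in PaTu 8988T.

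The deviation of MIA PaCa-2 control replicate 2 went with the base composition of the members. SEMA3A and SEMA3C, with 36.7% and 39.4% GC in their longest protein-coding transcript, were lower in replicate 2 than in controls 1 and 3, by log2 differences of -0.65 and -1.10. The other 5 members measured there, with 60.9% to 63.5% GC, were all higher, by 0.48 to 0.60. Over 9902 genes of this line that had a transcript in GENCODE v29, 92.0% of the 10758 tested, the same difference had a Pearson correlation of 0.88 with GC content. This is a description across genes of the same 3 libraries, and its part in the changes of the members was not tested. The groups of SEMA3C stayed separate with replicate 2 in place. In PaTu 8988T, knockdown replicates 1 and 2, each against the other 2 knockdown libraries, had correlations of -0.62 and 0.62 with GC content. Their SDs of the log2 difference over genes were 0.14 and 0.16, and their part in the changes of that line was not tested.

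**Figure D3:**
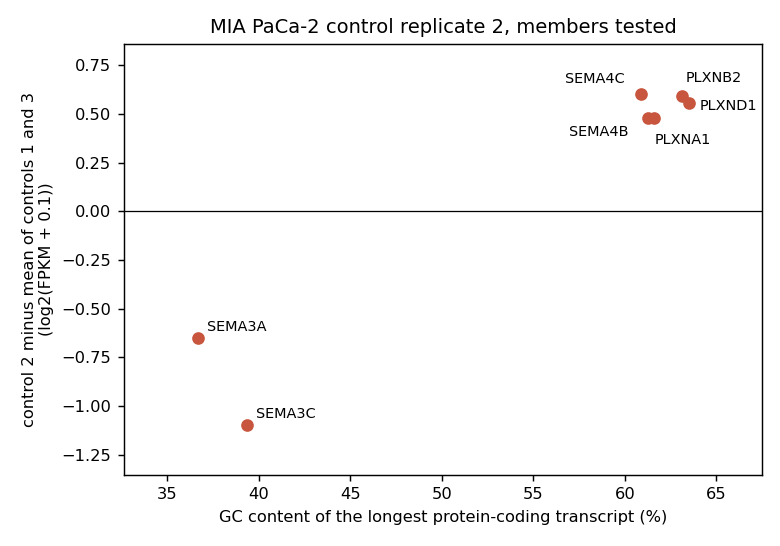
GC content of the longest protein-coding transcript of the 7 members measured in MIA PaCa-2 (x axis, percent) against their level in control replicate 2 minus the mean of controls 1 and 3 (y axis, log2(FPKM + 0.1)). SEMA3A and SEMA3C lie below 0 and the 5 members with more than 60% GC lie above it.

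Past the study's threshold, an adjusted p below 0.05 with a fold change above 2 or below 0.5, 4 of the 10 members were lower in PANC-1, against 4.84% of all 10902 genes tested, and none was higher, against 1.75%. The 4 were NRP1, SEMA4B, SEMA3C and NRP2. In MIA PaCa-2, 7 members passed the filter on low values and SEMA3C was lower past the threshold, against 3.68% of all genes lower and 4.07% higher. Without control 1 or control 3, SEMA3C was under the 2-fold limit. In PaTu 8988T, 6 members passed the filter and SEMA4B was lower, against 0.841% lower and 0.159% higher. The control and knockdown libraries did not overlap for 9 of 10, 3 of 7 and 3 of 6 members in PANC-1, MIA PaCa-2 and PaTu 8988T, and for 75%, 59.3% and 51.9% of all genes tested. The rule chose the members on these contrasts, so these counts are no test of them and nothing is read from these shares. The median log2 fold change of the members was -0.78, -0.09 and -0.15 in the 3 lines, against 0.06, -0.03 and 0.03 over all genes tested.

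The order of the members within PANC-1 changed with knockdown. Per length, the controls ran from SEMA4B (218 ± 4 FPKM) through SEMA3C (145 ± 4), PLXND1 (74.1 ± 0.4), NRP1 (38.4 ± 1.2), PLXNB2 (33.4 ± 1.6), SEMA4C, PLXNA1 and SEMA3A to NRP2 and PLXNB1. Only the last pair, at 2.67 and 2.59 FPKM, overlapped between libraries. After knockdown PLXND1 was highest at 52.6 ± 0.4 FPKM, followed by SEMA3C at 38.5 ± 0.8 and SEMA4B at 32.1 ± 0.4, and NRP1 was in eighth place at 5.28 ± 0.14. The ratio of SEMA4B to PLXND1 went from 2.94 ± 0.04 to 0.610 ± 0.006. Summed over the 4 ligands, the level was 393 to 398 FPKM in the controls and 94.1 to 95.7 FPKM after knockdown. Summed over the 4 receptors it was 125 to 129 and 85.3 to 86.3 FPKM, and over the 2 neuropilins 40.04 to 42.3 and 6.26 to 6.78 FPKM. The ligand sum of PaTu 8988T went from 52.8 to 56.1 FPKM to 25.7 to 26.2 FPKM, of which SEMA4B was the larger part in controls.

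The other genes of the pathway were read from 6 lists of 77 genes that hold no member. They cover the other semaphorins, the other plexins, further coreceptors and VEGF ligands, the proteases that cut semaphorins or their receptors, the effectors of plexins and cytoskeletal regulators linked to semaphorins. In PANC-1, 52 of the 77 passed the filter. Past the threshold 4 were lower, against 4.84% of all genes tested, and 1 was higher, against 1.75%. L1CAM, a cell adhesion molecule that pairs with NRP1 in SEMA3A signalling, fell from 15.3 to 5.29 FPKM (log2 fold change -1.52, SE 0.062, limma adjusted p = 1.4e-08). ADAM10, a sheddase that cuts many membrane proteins including L1CAM, fell from 23.6 to 8.77 FPKM (-1.42, SE 0.045, adjusted p = 2.7e-09). The transmembrane ligand SEMA6B fell from 18.9 to 8.62 FPKM (-1.12, SE 0.044, adjusted p = 1.0e-08) and the receptor PLXNB3 from 2.85 to 1.21 FPKM (-1.17, SE 0.11, adjusted p = 7.8e-06). These 4 genes had no overlap between groups. By adjusted p alone, 26 of the 52 were lower and 19 higher, against 32.2% and 40.1% of all genes. The median over the 52 was -0.16, against 0.06 over all genes. The 6 other semaphorins measured in PANC-1 all had negative values, 3 of them by adjusted p, with a median of -0.46. Of the 14 plexin effectors, 8 were higher and 5 lower by adjusted p. Of the 15 cytoskeletal genes, 8 were lower and 6 higher, with MICAL2, a monooxygenase that acts on actin, at the smallest p (0.65, SE 0.036, adjusted p = 1.0e-07).

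In MIA PaCa-2, 47 of the 77 passed the filter. Past the threshold 2 were higher, against 4.07% of all genes tested, and none was lower, against 3.68%. VEGFA, the angiogenic ligand that also binds NRP1, rose from 6.35, 5.92 and 5.86 FPKM to 14.97, 14.7 and 14.6 (log2 fold change 1.27, SE 0.083, limma adjusted p = 1.9e-04). The groups were far apart, and VEGFA kept its call without control replicate 2, at 1.26 (SE 0.048). SEMA3D, a secreted ligand, was at 12.4, 5.93 and 12.9 FPKM in controls and 22.02, 23.1 and 22.5 after knockdown (1.19, SE 0.29, adjusted p = 0.018). Without replicate 2 its log2 fold change was 0.83, and it was no longer past the 2-fold limit. By adjusted p alone, 8 of the 47 were lower and 10 higher, against 21.7% and 18.7% of all genes. The smallest p of each other list were those of RRAS, a substrate of the plexin GTPase-activating domain (0.77, SE 0.12, adjusted p = 0.0035), PAK1, a kinase that acts on the cytoskeleton (0.75, SE 0.085, adjusted p = 0.0011), the sheddase ADAM17 (0.52, SE 0.12, adjusted p = 0.017) and PLXNB3 (0.83, SE 0.30, adjusted p = 0.064, which misses the threshold). Without control replicate 2, RRAS was at 0.89 (SE 0.048), PAK1 at 0.69 (SE 0.035) and ADAM17 at 0.39 (SE 0.041), and PLXNB3 no longer passed the filter. The median over the 47 was 0.05, against -0.03 over all genes.

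In PaTu 8988T, 47 of the 77 passed the filter. Past the threshold SEMA4G was lower, against 0.841% of all genes tested, and none was higher, against 0.159%. SEMA4G, a membrane-bound semaphorin, was at 3.62, 4.18 and 3.52 FPKM in controls and 1.66, 1.72 and 1.77 after knockdown (log2 fold change -1.09, SE 0.087, limma adjusted p = 2.1e-05). The groups did not overlap. By adjusted p alone, 16 of the 47 were lower and 8 higher, against 18.5% and 20.9% of all genes. PLXNA3, the one other plexin measured there, was lower by -0.79 (SE 0.067, adjusted p = 2.9e-05), from 4.55 to 2.58 FPKM. VEGFA was lower by -0.30 (SE 0.039, adjusted p = 3.9e-04), ADAM17 by -0.49 (SE 0.062, adjusted p = 3.4e-04) and DPYSL2, a microtubule-binding mediator of SEMA3A signalling, by -0.47 (SE 0.044, adjusted p = 5.7e-05). The median over the 47 was 0.00 when rounded, against 0.03 over all genes.

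**Figure D4:**
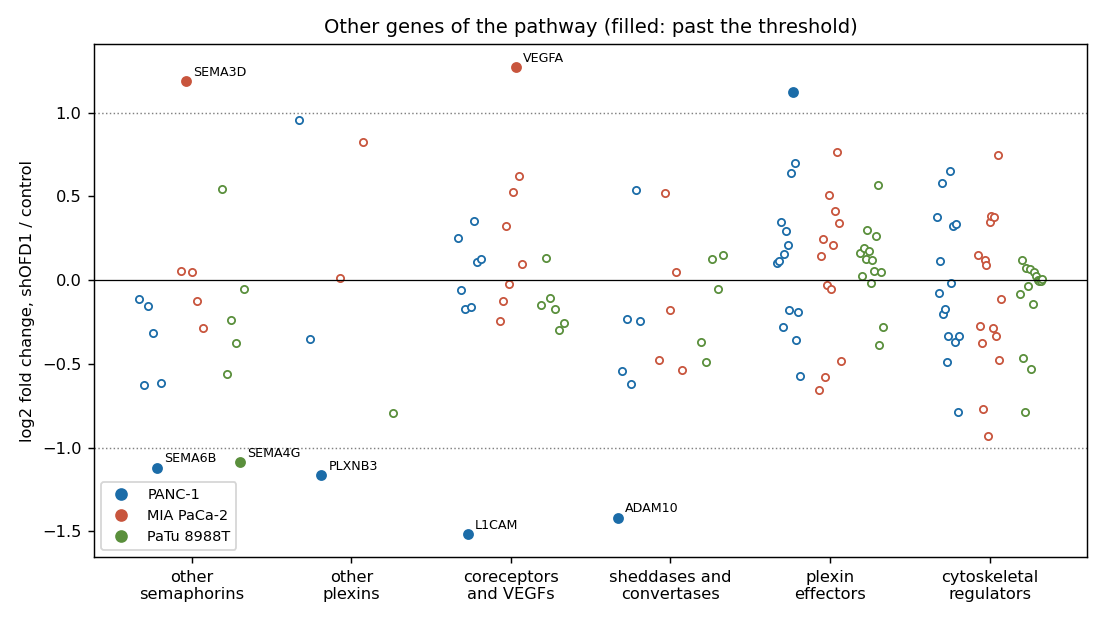
Log2 fold change (shOFD1 over control) of the other pathway genes with a mean of at least 1 FPKM, by list and line. Filled points passed an adjusted p of 0.05 and a 2-fold change, open points did not, names are given for the filled points described in the text, and dotted lines mark 2-fold. L1CAM and ADAM10 in PANC-1 had the lowest values, and VEGFA and SEMA3D in MIA PaCa-2 the highest.

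Ephrins, netrins, Slits and related receptors, 41 genes of other guidance families, were read in the same way. In PANC-1, 16 were measured and 3 were lower past the threshold, the ephrins EFNB3 (-1.40, SE 0.18) and EFNA3 (-1.17, SE 0.14) and the receptor EPHB2 (-1.15, SE 0.060), against the 4.84% of all genes. In MIA PaCa-2, 17 were measured, and the Robo family members ROBO4 (1.53, SE 0.17) and ROBO3 (1.14, SE 0.17) were higher while NTN1 (-1.21, SE 0.20) was lower. EFNB1 (-1.01, SE 0.19) was also lower there, the second of 2 lower genes, against 3.68% of all genes lower and 4.07% higher. Without control replicate 2, ROBO4 (1.59, SE 0.16) and ROBO3 (1.32, SE 0.079) kept their calls, while NTN1 (-0.98, SE 0.086) and EFNB1 (-0.80, SE 0.064) were under the 2-fold limit. In PaTu 8988T, 14 were measured and EFNA3 was lower (-1.45, SE 0.11), against 0.841%. With all libraries, each had a limma adjusted p below the threshold of 0.05 over all genes of its line.

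The difference in change between lines was fitted over all 18 libraries. For the members it is given with no test. SEMA4B changed by 3.05 (SE 0.14) more in MIA PaCa-2 than in PANC-1 and by -2.12 (SE 0.14) in PaTu 8988T relative to MIA PaCa-2, on the log2 scale. SEMA3C differed by 1.72 (SE 0.27) between PaTu 8988T and PANC-1. The fit takes the spread of each gene from all 18 libraries. Each SE and call thus also carries the spread of the line outside a comparison. For SEMA3C the SE was 0.27 in every comparison, against 0.029 within PANC-1 and 0.062 within PaTu 8988T. PLXNB2 differed from PANC-1 by 0.75 (SE 0.16) in MIA PaCa-2 and by 0.74 (SE 0.16) in PaTu 8988T. Of the 39 other pathway genes tested, 2 differed past the threshold between MIA PaCa-2 and PANC-1, against 4.45% of all 9083 genes, 1 between PaTu 8988T and PANC-1, against 4.32%, and 4 between PaTu 8988T and MIA PaCa-2, against 8.48%. Those of MIA PaCa-2 against PANC-1 were ADAM17 (1.06, SE 0.12) and RRAS (1.12, SE 0.13), and that of PaTu 8988T against PANC-1 was ADAM10 (1.05, SE 0.20). The last 4 were VEGFA (-1.57, SE 0.064), RRAS (-1.15, SE 0.13), ADAM17 (-1.01, SE 0.12) and LIMK2 (1.002, SE 0.18). LIMK2 was named after its values were seen. ADAM17 lost its call in both comparisons, and LIMK2 in the one where it had it, without MIA PaCa-2 control replicate 2.

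The members were not chosen on the difference between untreated lines, although the same control libraries enter the changes that chose them, and MIA PaCa-2 and PaTu 8988T controls were compared by test. The gene lengths behind the FPKM were the same in both lines for all 7 members tested, whereas PANC-1 shared its lengths for only 54.1% of genes and was left out. SEMA4B was higher in PaTu 8988T, at 38.2 ± 1.8 against 5.67 ± 1.18 FPKM (log2 difference 2.75, SE 0.15, limma adjusted p = 7.2e-06). PLXNB2 was higher there too, at 38.4 ± 0.6 against 19.4 ± 4.9 FPKM (1.01, SE 0.17, adjusted p = 0.0016), just past the 2-fold limit, and lost that call without MIA PaCa-2 control 1 (0.91) or 3 (0.91) or PaTu 8988T control 3 (0.997). Against these 2, 16.3% of all 10886 genes tested were higher in PaTu 8988T. MIA PaCa-2 had the higher level of SEMA3C (36.0 ± 13.5 against 9.47 ± 0.29 FPKM, -1.83, SE 0.29, adjusted p = 0.0013) and of PLXND1 (20.04 ± 4.7 against 4.15 ± 0.16 FPKM, -2.22, SE 0.17, adjusted p = 3.2e-05). Against these 2, 15.3% of all genes were higher in MIA PaCa-2. SEMA3A was at 34.8 ± 8.3 FPKM in MIA PaCa-2 and 0.034 ± 0.013 in PaTu 8988T, and is given without a test because it passed the filter on low values only through MIA PaCa-2. SEMA4C (-0.03, SE 0.18, adjusted p = 0.89) and PLXNA1 (-0.02, SE 0.15, adjusted p = 0.92) showed no difference past the spread of the libraries. NRP1, NRP2 and PLXNB1 had means under 1 FPKM over both groups and were not tested. Without MIA PaCa-2 control replicate 2, SEMA4B, PLXNB2, SEMA3C and PLXND1 still passed, with PLXNB2 at 1.203.

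**Figure D5:**
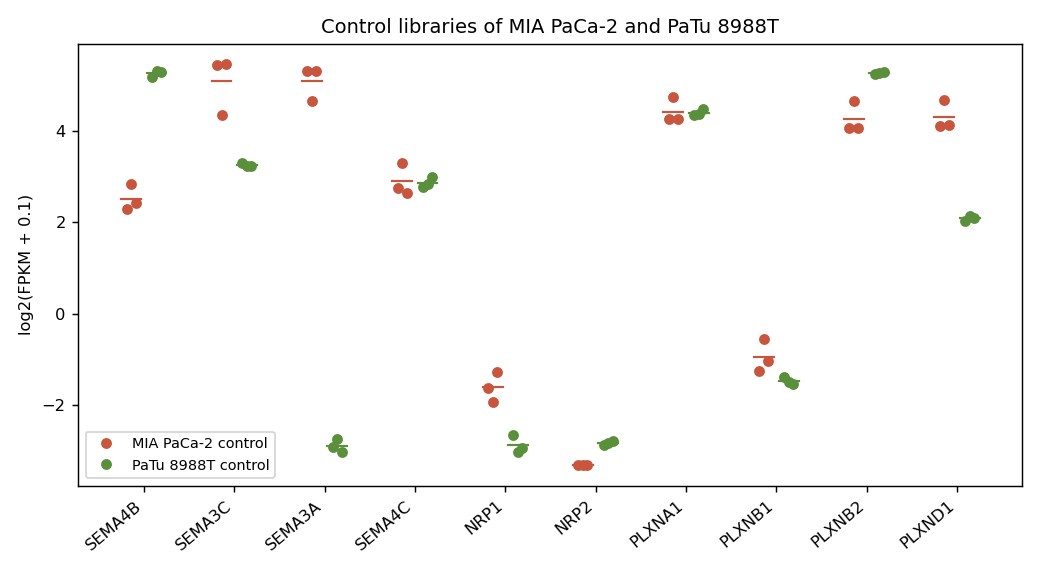
Level of each member in the control libraries of MIA PaCa-2 and PaTu 8988T, as log2(FPKM + 0.1), with 3 points and a mean bar per line. SEMA3A, SEMA3C and PLXND1 were higher in MIA PaCa-2, SEMA4B and PLXNB2 were higher in PaTu 8988T, and SEMA4C and PLXNA1 lay together.

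Genes with the most similar pattern were found by Pearson correlation over the 18 libraries of the log2 level minus the mean of the controls of the same line. The 18 points share 3 lines, their controls lie near 0, and the correlations carry no test. For SEMA4B the closest of 9082 genes were ENO2, a neuronal form of the glycolytic enzyme enolase (r = 0.996), GLG1, a Golgi glycoprotein (0.984), and FBXO41, an F-box protein (0.981). ENO2 changed by -1.99, 0.19 and -1.28 in PANC-1, MIA PaCa-2 and PaTu 8988T. For SEMA3C they were OLA1, an Obg-like ATPase (0.995), NCEH1, a cholesteryl ester hydrolase (0.995), and CHURC1, a zinc-binding protein (0.993). For NRP1 they were CD44, the hyaluronan receptor (0.985), CIT, a kinase of cytokinesis (0.982), and LRP8, a receptor for apolipoprotein E and reelin (0.982), although NRP1 itself was low in MIA PaCa-2 and PaTu 8988T. Among the members, SEMA4B and SEMA3C had a correlation of 0.56 with each other, and that of PLXND1 with SEMA4B was 0.87.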

How the data were processed

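The authors deposited FPKM values, which their methods describe as made by mapping with HISAT2 and counting with HTSeq-count. The submitters' processing notes list the builds hg38, GRCm38 and mm10 with no role given, and the samples are human. The methods name TRIzol for RNA extraction, whereas the labels name a column kit. All 18 columns of the deposited table were matched to samples by name, with 0 columns left out.

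From the FPKM, whole reads and gene lengths were recovered by finding the library sizes and lengths that make each value a whole number of reads, within 0.001 of a read. This held for 100% of genes above 0 in each line. Gene lengths were the same in MIA PaCa-2 and PaTu 8988T for 99.98% of 13780 genes but differed from PANC-1 for many genes, and genes listed at 0 in a whole line were not analysed there. Replicate pairs differed by more than counting noise, at 3.06 to 132 times the chi-square that counting alone gives on average, so each library was counted as 1 replicate.

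Within each line, log2(FPKM + 0.1) of genes with a mean of at least 1 FPKM was modelled in limma 3.58.1 under R 4.3.3 (lmFit and eBayes with a variance trend), in place of the study's count test, with Benjamini-Hochberg adjustment of p over every gene in the fit. Fold changes are on this log2 scale, which understates changes of low genes. The study's threshold was kept, and differences between lines used interaction terms with a log2 difference of at least 1. The smallest two-sided p that exact permutation of 3 against 3 libraries allows is 0.1. The scripts were tested on simulated data. Python 3.11.15, numpy 2.4.6 and pandas 2.3.3 were used for tables and sequences.

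The members and gene lists were chosen with earlier results of these data known. Beside the 10 members and OFD1, the text names the pathway genes past the threshold in any line, up to 8 per line, the gene of each pathway list with the smallest p in each line, the 3 largest changes past the threshold per line of the other guidance families, and the 3 most similar genes of SEMA4B, SEMA3C and NRP1. EFNB1 was named outside this rule, to complete a count. Some results that the rule would name are not reported here. Libraries were not paired by replicate number. Of 9 same-numbered pairs, 1 had a correlation of deviations over 0.1 (range -0.11 to 0.13). Differently numbered pairs in PaTu 8988T ranged from -0.23 to 0.23. Such correlations cannot tell whether libraries shared a batch, because deviations were taken from the mean of each group. Alternatives covered the pseudocount, filters, scaling, the variance model, recovered reads, the replicate block and leaving out each library. Leaving out MIA PaCa-2 control replicate 2 for OFD1 and the other guidance genes was chosen after seeing the data.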

Additional observations from a re-analysis of the deposited data

Results flagged for a closer look

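The change of SEMA4B differed between lines. All 3 knockdown libraries lay above the control mean in MIA PaCa-2 and below it in PANC-1 and PaTu 8988T. The log2 changes differed by 3.05 between MIA PaCa-2 and PANC-1 and by -2.12 between PaTu 8988T and MIA PaCa-2, and this difference was not tested, because the change of SEMA4B chose the set. MIA PaCa-2 control replicate 2, at 7.002 FPKM, was the highest of the 3 controls there and above 2 of the 3 knockdown libraries, so the groups overlapped in MIA PaCa-2.

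For other pathway genes, limma's interaction test gave a difference between lines. RRAS changed by 1.12 more in MIA PaCa-2 than in PANC-1 and by -1.15 in PaTu 8988T relative to MIA PaCa-2, with all 3 MIA PaCa-2 knockdown libraries above its controls (47.7 to 48.0 against 24.3 to 33.3 FPKM). ADAM17 differed by 1.06 and -1.01 in the same comparisons. ADAM10 differed by 1.05 between PaTu 8988T and PANC-1. VEGFA differed by -1.57 and LIMK2 by 1.002 between PaTu 8988T and MIA PaCa-2. ADAM17 and LIMK2 lost their calls without MIA PaCa-2 control replicate 2. With a pseudocount of 1, ADAM10, ADAM17 and LIMK2 lost theirs. Of 39 genes tested, 2 differed between MIA PaCa-2 and PANC-1, against 4.45% of all genes. Between PaTu 8988T and PANC-1 it was 1, against 4.32%, and between PaTu 8988T and MIA PaCa-2 it was 4, against 8.48%.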

How the results depend on the processing

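Counts of pathway genes past the threshold were 5, 2 and 1 in PANC-1, MIA PaCa-2 and PaTu 8988T. A pseudocount of 1 gave 3 in PANC-1 and 0 in PaTu 8988T, a mean of at least 5 FPKM gave 3 and 0, and no filter gave 5 in MIA PaCa-2 and 3 in PaTu 8988T. PLXNB3 was among the losses in PANC-1, and L1CAM, ADAM10 and SEMA6B kept their calls in both. Leaving out each library gave 5 to 6, 1 to 3 and 1 to 1, and the lowest value in MIA PaCa-2, 1, was without MIA PaCa-2 control replicate 2, which removed SEMA3D. Without any one MIA PaCa-2 knockdown library, SEMA3D also lost its call. The counts of differences between lines were 2, 1 and 4 (MIA PaCa-2 against PANC-1, PaTu 8988T against PANC-1, PaTu 8988T against MIA PaCa-2). A pseudocount of 1 gave 1, 0 and 2, no filter gave 7, 4 and 8, recentring gave 4 for the first, and leaving out each library gave 1 to 3, 1 to 1 and 2 to 4. The lowest values came without MIA PaCa-2 control replicate 2 for the first (1), and without PaTu 8988T control replicate 1 or PaTu 8988T shOFD1 replicate 2 for the third (2), where RRAS and VEGFA kept their calls and ADAM17 and LIMK2 did not. The cause was not tested. With the replicate block the counts were 5, 2 and 1 past the threshold, 2, 1 and 4 between lines and 5 members between controls with SEMA3A counted, so it changed none of these calls. Voom on recovered reads gave 6, 2 and 1. The control difference of SEMA4C turned to 0.021 with libraries recentred on the median and that of PLXNA1 to 0.034, and leaving out 1 library gave -0.16 to 0.17 for SEMA4C and -0.10 to 0.14 for PLXNA1. PLXNB2 fell under the 2-fold limit with a pseudocount of 1 (0.97) and without MIA PaCa-2 control 1 or 3 or PaTu 8988T control 3. The member changes above 2-fold carry no test. Of these, NRP2 in PANC-1 fell under 2-fold with a pseudocount of 1 (-0.73) and was not measured with the filter at 5 FPKM. SEMA3C in MIA PaCa-2 fell under 2-fold without control 1 (-0.87) or control 3 (-0.86).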
